A study of Mus musculus with 7 samples.

Results

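Microglia identity genes and the genes of complement component C1q were examined in RNA-seq libraries of bead-enriched mouse amygdala astrocytes. The 9 genes are C1qa, C1qb, C1qc, Csf1r, Cx3cr1, P2ry12, Tmem119, Aif1 and Trem2, taken by symbol from a count table of 35976 genes, and all 9 were found there. The sgEgfr group had 3 libraries, from mice given a guide RNA against Egfr, which encodes the receptor of epidermal growth factor. The sgRosa group had 4 libraries, from mice with a guide against the Rosa26 locus, the control. Both groups were male C57BL/6J mice with an adeno-associated virus in the amygdala, Cas9 under the astrocyte promoter GfaABC1D, and more than 2 weeks of expression. All of them were then restrained in a tube (7 days), fear conditioned (1 day) and put through extinction (3 days), so no unstressed group was compared. The cells were released with papain and enriched with magnetic beads for ACSA-2, which astrocytes carry on their surface. The Cas9 promoter is one of astrocytes, so that microglia were not the cells meant to be edited.

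Microglia are the resident macrophages of the brain, derived from the yolk sac and maintained by signals through the CSF1 receptor. They survey the tissue with motile processes, sense ADP, fractalkine and lipids through surface receptors, and clear debris and synapses. C1q starts the classical complement pathway. It is built from A, B and C chains, each made by its own gene, and microglia are its main source in the brain.

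The libraries held 5852870 to 22579222 counts. The libraries sgRosa 3 and sgRosa 4 were almost within sampling noise of each other (chi-square per degree of freedom 1.04 over 13563 genes), where the other 20 pairs of libraries gave 14.8 to 158. Their counts were therefore added up to 1 sample, sgRosa 3+4, and each group entered the tests with 3 samples. The labels did not say whether each library came from its own animal, so a p-value here speaks only of the spread between libraries. The 10 astrocyte markers took 0.551% to 0.800% of counts in sgEgfr and 0.376% to 0.868% in sgRosa. The 10 oligodendrocyte markers took more, 8.07% to 14.3% in sgEgfr and 7.17% to 10.6% in sgRosa, so the labelled cell type was not the most abundant by these markers. Egfr itself had 87 to 184 counts in sgEgfr libraries and 55 to 188 in sgRosa libraries, with a log2 fold change of -0.13 (SE 0.54, edgeR adjusted p = 0.997). Where the guide cuts was not stated, and a cut need not lower the transcript, so this count is no check of the labels.

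Microglia transcripts were present in every library at a low share of the RNA. The 9 genes together took 0.0176%, 0.0287% and 0.0129% of counts in sgEgfr 1, 2 and 3, against 0.0104%, 0.0218% and 0.0155% in sgRosa 1, 2 and 3+4. The exact 95% binomial interval, which covers counting error only, was 0.0279% to 0.0295% in sgEgfr 2 and 0.00987% to 0.0109% in sgRosa 1. The range over samples was thus 2.76-fold, far wider than counting error. Group means were 0.0198% ± 0.00812 in sgEgfr and 0.0159% ± 0.00573 in sgRosa (SD, n = 3 each), and the groups overlapped. In bulk RNA, fewer microglia and less RNA per microglial cell cannot be told apart. The highest count of a single gene in a library was 1199 (C1qb in sgEgfr 2) and the lowest 19 (Aif1 and Trem2 in sgRosa 4).

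The C1q genes made up about as much of this signal as the 6 others together, 51.5% ± 4.73 of the counts of the 9 genes in sgEgfr and 51.6% ± 0.323 in sgRosa (SD, n = 3 each). They lie side by side on mouse chromosome 4, on the same strand. C1qb runs from 136880126 to 136886200, C1qc from 136889801 to 136892936 and C1qa from 136895916 to 136898844 (RefSeq, GRCm38.p6), with gaps of 3600 and 2979 bases between them. The whole cluster spans 18719 bases.

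RefSeq's promoter table (GRCm38.p6) matched 6 of the 9 genes: C1qb, C1qc, Cx3cr1, P2ry12, Aif1 and Trem2. Below are the 250 bases before the start site, as that table sets it, of the neighbours C1qb (chr4:136886201-136886450, minus strand) and C1qc (chr4:136892915-136893164, minus strand), and of Trem2 (chr17:48346151-48346400, plus strand) and P2ry12 (chr3:59262986-59263235, minus strand), a pair of genes whose levels went apart across the samples. For C1qc the table's start site lies inside the span given above, so the window takes in the first bases of that span. Capitals mark GAGGAA, the core of the box bound by PU.1, a transcription factor of the myeloid lineage, or its longer form GAGGAAGT, on either strand, so that C1qc and Trem2 show the reverse complement.
C1qb: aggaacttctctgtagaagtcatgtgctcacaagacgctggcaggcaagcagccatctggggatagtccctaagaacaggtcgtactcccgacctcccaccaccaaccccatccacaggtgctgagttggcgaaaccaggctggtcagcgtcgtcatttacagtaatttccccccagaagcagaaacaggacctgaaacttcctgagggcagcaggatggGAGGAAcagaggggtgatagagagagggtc
C1qc: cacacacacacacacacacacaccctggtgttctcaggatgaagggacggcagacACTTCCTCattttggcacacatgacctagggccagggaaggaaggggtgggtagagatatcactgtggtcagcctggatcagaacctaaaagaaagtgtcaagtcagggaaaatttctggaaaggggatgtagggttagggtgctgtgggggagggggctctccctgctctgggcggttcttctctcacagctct
Trem2: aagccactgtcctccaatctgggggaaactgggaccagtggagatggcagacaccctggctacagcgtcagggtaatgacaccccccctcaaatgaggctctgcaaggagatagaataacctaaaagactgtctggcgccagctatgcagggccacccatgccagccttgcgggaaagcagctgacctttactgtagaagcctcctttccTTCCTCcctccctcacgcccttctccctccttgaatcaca
P2ry12: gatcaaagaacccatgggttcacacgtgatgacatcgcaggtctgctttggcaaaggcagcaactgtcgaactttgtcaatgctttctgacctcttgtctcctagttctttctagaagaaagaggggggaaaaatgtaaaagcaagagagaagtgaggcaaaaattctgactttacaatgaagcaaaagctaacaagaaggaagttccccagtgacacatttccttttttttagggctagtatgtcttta
The motif GAGGAA, searched on both strands, was in 4 of the 6 promoters (C1qb, C1qc, Aif1 and Trem2) and in 23.3% of 32851 promoters of the same length. The longer GAGGAAGT, which contains it, was in that of C1qc and in 2.44% of all. A match describes the letters of this window and is not a test of binding.

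C1qa encodes the A chain of C1q. Its level was 16.2, 26.1 and 8.63 CPM in sgEgfr 1, 2 and 3, against 7.68, 14.7 and 9.65 CPM in sgRosa 1, 2 and 3+4 (CPM, reads relative to the size of the library, here scaled with TMM factors). sgEgfr 2 stood highest and sgRosa 1 lowest, and the groups overlapped because sgEgfr 3 lay below sgRosa 2 and 3+4.

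C1qb, the gene of the B chain, had the highest level of the 9 per kilobase of transcript. It was at 40.1, 78.4 and 23.5 CPM across sgEgfr 1 to 3, against 20.9, 46.0 and 37.5 CPM in sgRosa 1, 2 and 3+4. The spread within sgEgfr was 3.34-fold and within sgRosa 2.20-fold, both larger than the 1.36-fold difference fitted between the guides. C1qc, the gene of the C chain, was at 37.4, 61.9 and 27.0 CPM across sgEgfr 1 to 3, against 25.2, 46.5 and 33.3 CPM in sgRosa 1, 2 and 3+4. Its range over the samples, 2.45-fold, was the narrowest of the 9 genes.

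Csf1r encodes the receptor for CSF1 and IL-34, on which microglia depend for survival. It was at 26.3, 52.1 and 17.1 CPM across sgEgfr 1 to 3, against 16.5, 32.6 and 28.6 CPM in sgRosa 1, 2 and 3+4. As for C1qb, sgEgfr 2 and sgRosa 2 were the highest samples and sgEgfr 3 and sgRosa 1 the lowest. Of the exonic bases of Csf1r, 15.1% are shared with Hmgxb3 on the other strand, and without a stated strand setting reads there cannot be assigned to either gene.

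Cx3cr1 encodes the receptor for fractalkine, a ligand that neurons present. It was at 16.2, 34.3 and 17.6 CPM across sgEgfr 1 to 3, against 11.5, 28.7 and 18 CPM in sgRosa 1, 2 and 3+4. P2ry12 encodes the ADP receptor that steers microglial processes towards injury. It was at 13, 33.0 and 17.5 CPM across sgEgfr 1 to 3, against 14.3, 20.8 and 13.7 CPM in sgRosa 1, 2 and 3+4. For P2ry12 the lowest sample was sgEgfr 1, not sgRosa 1.

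Trem2 encodes a lipid-sensing receptor that signals through the adaptor TYROBP. It was at 7.60, 12.4 and 2.09 CPM across sgEgfr 1 to 3, against 2.11, 6.37 and 3.24 CPM in sgRosa 1, 2 and 3+4. Its 5.94-fold range was the widest of the 9 genes, and it lay within sgEgfr.

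Tmem119, a membrane protein used to tell microglia from other macrophages, was at 5.64, 16.4 and 10.7 CPM across sgEgfr 1 to 3, against 4.02, 10.2 and 8.32 CPM in sgRosa 1, 2 and 3+4. Aif1, which encodes the calcium- and actin-binding protein IBA1, was at 4.88, 6.54 and 2.92 CPM across sgEgfr 1 to 3, against 1.76, 3.24 and 2.92 CPM in sgRosa 1, 2 and 3+4. All 9 genes were highest in sgEgfr 2, and 7 of 9 were lowest in sgRosa 1. Of the 14936 genes tested across the table, 18.3% had their highest CPM in sgEgfr 2 and 17.8% their lowest in sgRosa 1.

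**Figure D1:**
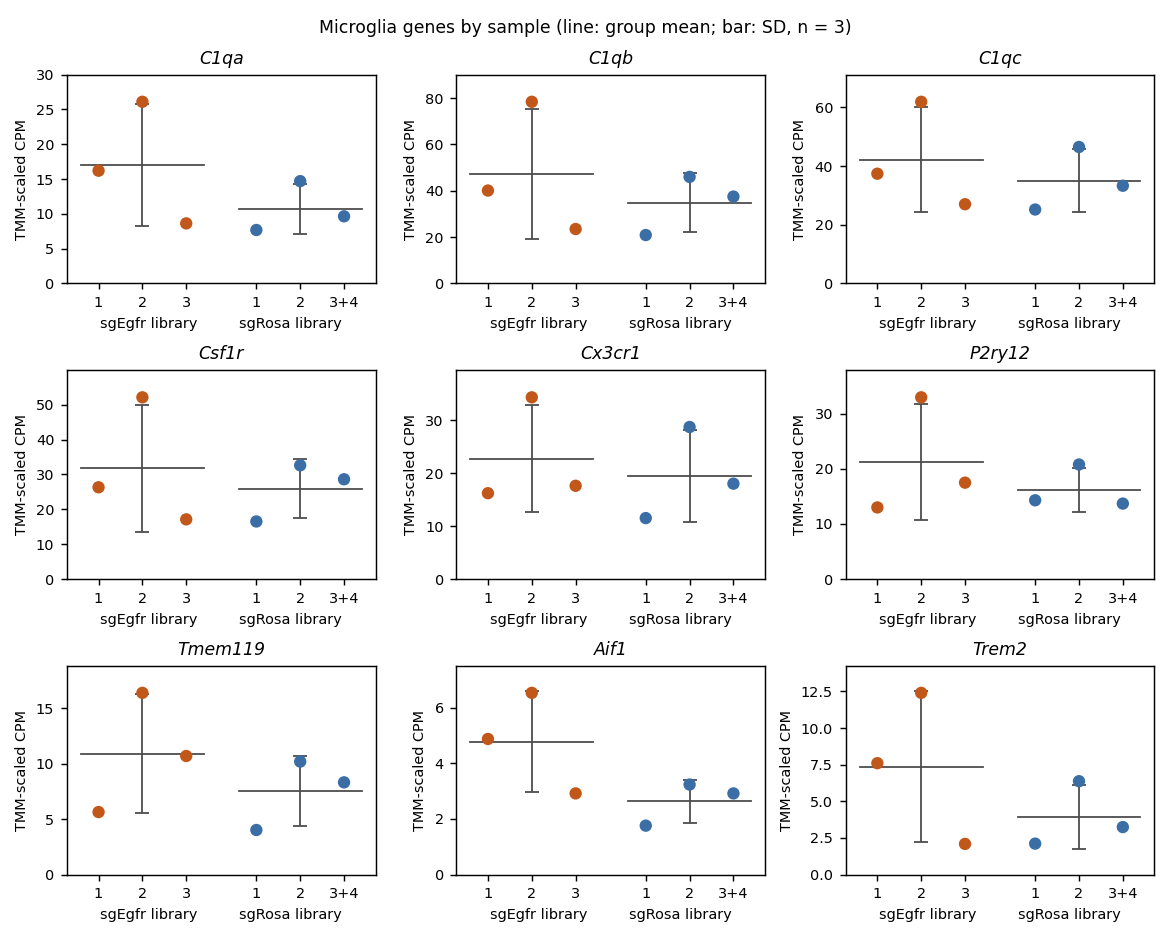
TMM-scaled CPM of each of the 9 genes (y axis, from 0) in sgEgfr 1 to 3 (orange) and sgRosa 1, 2 and 3+4 (blue), with the group mean as a line and the SD as a bar (n = 3). sgEgfr 2 is the highest point in all 9 panels, and the 2 groups overlap in each.

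Levels were set against each other per kilobase, with the length of the longest transcript that GENCODE M21 tags as principal. C1qb averaged 37.7 ± 19 CPM per kilobase and C1qc 32.0 ± 11.5 (SD over the 6 samples), and C1qb was above C1qc in 4 of 6 samples, so their order was not fixed. C1qc was above C1qa, at 13.3 ± 6.65 CPM per kilobase, in 6 of 6 samples. C1qa was above P2ry12, at 7.98 ± 3.23, in 6 of 6 samples. Csf1r at 6.14 ± 2.78, Trem2 at 5.18 ± 3.70, Cx3cr1 at 4.69 ± 1.91, Aif1 at 4.24 ± 1.96 and Tmem119 at 4.11 ± 1.95 CPM per kilobase lay within 1 SD of their neighbours in this order.

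The make-up of the C1q transcripts varied less than their amount. C1qa gave 17.3%, 15.7% and 14.6% of the C1q counts in sgEgfr 1 to 3, against 14.3%, 13.7% and 12% in sgRosa 1, 2 and 3+4. The 3 sgEgfr values were above the 3 sgRosa values, but the exact 95% intervals of sgEgfr 3 (12.8% to 16.6%) and sgRosa 1 (11.9% to 17%) covered most of the same range. Group means were 15.9% ± 1.36 in sgEgfr and 13.3% ± 1.19 in sgRosa (SD, n = 3 each). C1qb gave 43.2% ± 3.72 of the C1q counts in sgEgfr and 42.8% ± 3.91 in sgRosa, and C1qc 40.9% ± 4.34 in sgEgfr and 43.9% ± 2.80 in sgRosa. In both libraries summed to sgRosa 3+4 the C1qc share differed, at 44.7% (41.2% to 48.2%) in sgRosa 3 and 35.7% (31.3% to 40.2%) in sgRosa 4. The C1qa and C1qb intervals of these 2 libraries overlapped.

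**Figure D2:**
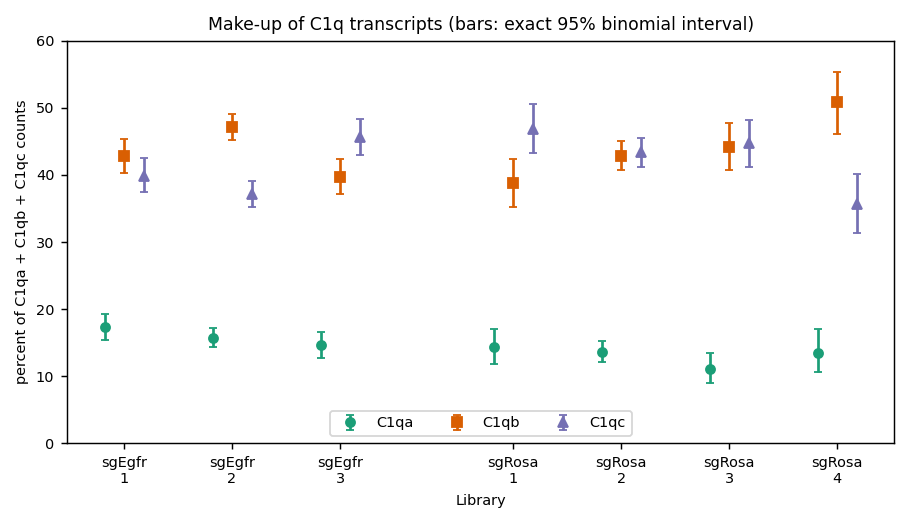
Share of each chain's gene in the summed C1qa, C1qb and C1qc counts (y axis, percent) in each of the 7 libraries, with exact 95% binomial intervals as bars. C1qa lies between 11.1% and 17.3% in all 7, and C1qb and C1qc exchange places between libraries.

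The 6 other genes split the rest of the signal unevenly between samples. Trem2 gave 4.54%, 3.87% and 1.65% of the counts of the 9 genes in sgEgfr 1 to 3, against 2.03%, 3.05% and 2.09% in sgRosa 1, 2 and 3+4. P2ry12 gave 7.76%, 10.3% and 13.8% in sgEgfr 1 to 3, against 13.8%, 9.94% and 8.80% in sgRosa 1, 2 and 3+4. Tmem119 gave 3.37%, 5.11% and 8.41% in sgEgfr 1 to 3, against 3.86%, 4.87% and 5.36% in sgRosa 1, 2 and 3+4. Within sgEgfr, the library with the largest share of Trem2 thus had the smallest shares of P2ry12 and Tmem119, and the library with the smallest share of Trem2 had the largest shares of both. In sgRosa, sgRosa 1 had the largest share of P2ry12 but the smallest of Tmem119. Its share of Trem2 rested on 30 counts and was close to that of sgRosa 3+4, so the order of these samples was not settled.

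Co-variation was measured as the SD over the 6 samples of the log2 ratio of 2 genes, which is 0 for genes in a fixed ratio. The median over the 36 pairs was 0.42, where counting error alone gives a median of 0.15. C1qb and Csf1r kept the steadiest ratio, with an SD of 0.107 against 0.093 from counting error. C1qc and Csf1r followed with 0.185. The C1q pairs had SDs of 0.227 for C1qa and C1qb, 0.232 for C1qb and C1qc and 0.252 for C1qa and C1qc. Among them in this order lay C1qc and Cx3cr1 (0.233) and C1qa and Aif1 (0.249, against 0.225 from counting error). The least steady pairs were Tmem119 and Trem2 (0.937) and P2ry12 and Trem2 (0.854). Against the mean of the 8 others, C1qc had an SD of 0.17, C1qb 0.18, Csf1r 0.20, C1qa 0.21, Cx3cr1 0.26, Aif1 0.32, P2ry12 0.41, Tmem119 0.51 and Trem2 0.61. Relative to the 8 others and to its own mean, Tmem119 was 0.69 log2 units lower in sgEgfr 1 and 0.83 higher in sgEgfr 3. Trem2 was 0.78 log2 units higher in sgEgfr 1 and 0.82 lower in sgEgfr 3.

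**Figure D3:**
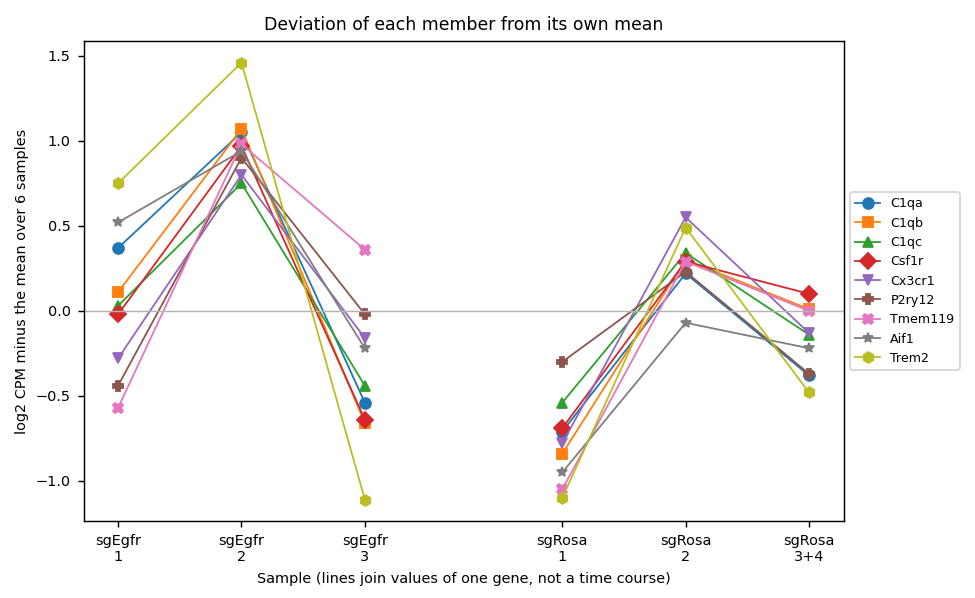
Log2 CPM of each of the 9 genes minus its mean over the 6 samples (y axis), for sgEgfr 1 to 3 and then sgRosa 1, 2 and 3+4, with lines joining values of 1 gene. All 9 genes lie above their mean in sgEgfr 2 (0.75 to 1.46), and they spread most in sgEgfr 1 and sgEgfr 3, where Trem2 and Tmem119 lie at opposite ends.

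Among 10782 genes with a mean of at least 5 CPM, the genes outside the 9 that followed their mean level most closely over the 6 samples were Tmsb4x (SD of the log2 ratio 0.12), Apod (0.13), Tuba1a (0.15), Gstm7 (0.15), U2af1 (0.16), Ddc (0.17), Poc1a (0.18), 2810468N07Rik (0.18), Stmn1 (0.19) and Ndrg1 (0.20). The median of all 10782 genes was 0.66. Tmsb4x encodes the actin-sequestering peptide thymosin beta 4. It was at 719, 1260 and 434 CPM across sgEgfr 1 to 3, against 346, 674 and 515 CPM in sgRosa 1, 2 and 3+4. Apod, a lipid carrier, was at 1290, 2070 and 848 CPM across sgEgfr 1 to 3, against 698, 1650 and 1070 CPM in sgRosa 1, 2 and 3+4. For the mean of the C1q genes alone the nearest were Tmsb4x (0.10), Apod (0.12), Rasl11b (0.13), U2af1 (0.14) and 2810468N07Rik (0.15). These are the closest of many genes over 6 samples, and such a ranking finds close genes in any data of this size.

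A list of 30 other microglia genes kept a steady ratio to the 9. There were 633, 741 and 650 counts of the 9 genes per 1000 counts of this list in sgEgfr 1 to 3, against 623, 730 and 653 in sgRosa 1, 2 and 3+4, a log2 ratio SD of 0.11. Among its most abundant genes, Ctss, the protease cathepsin S, had an SD of 0.28 to the mean of the 9, and Laptm5, a lysosomal membrane protein, 0.22. Ptprc, which encodes the pan-leukocyte antigen CD45, stood apart with an SD of 1.08. It was at 3.93, 3.99 and 5.10 CPM across sgEgfr 1 to 3, against 10.7, 10.4 and 4.51 CPM in sgRosa 1, 2 and 3+4.

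The ratio to markers of other cell types was set beside this after the values were seen. Per 1000 counts of the oligodendrocyte markers there were 1.73, 2.01 and 1.60 counts of the 9 genes in sgEgfr 1 to 3, against 1.45, 2.05 and 1.66 in sgRosa 1, 2 and 3+4, a log2 ratio SD of 0.19. Per 1000 counts of the astrocyte markers there were 22.1, 52.1 and 18 in sgEgfr 1 to 3, against 15.7, 58.1 and 17.9 in sgRosa 1, 2 and 3+4, an SD of 0.84. The share of the 9 genes in all counts had an SD of 0.53 on the log2 scale, so setting them against oligodendrocyte markers narrowed the spread and setting them against astrocyte markers widened it. sgEgfr 2 and sgRosa 2 stood high in both ratios. The ratio SD was 0.30 to the heat shock genes and 0.35 to the oligodendrocyte precursor markers, and 0.62, 0.64 and 0.67 to the mural cell, neuron and endothelial markers. It was 0.64 to the dissociation response genes and 2.20 to the ependymal markers, both wider than the spread of the share itself.

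**Figure D4:**
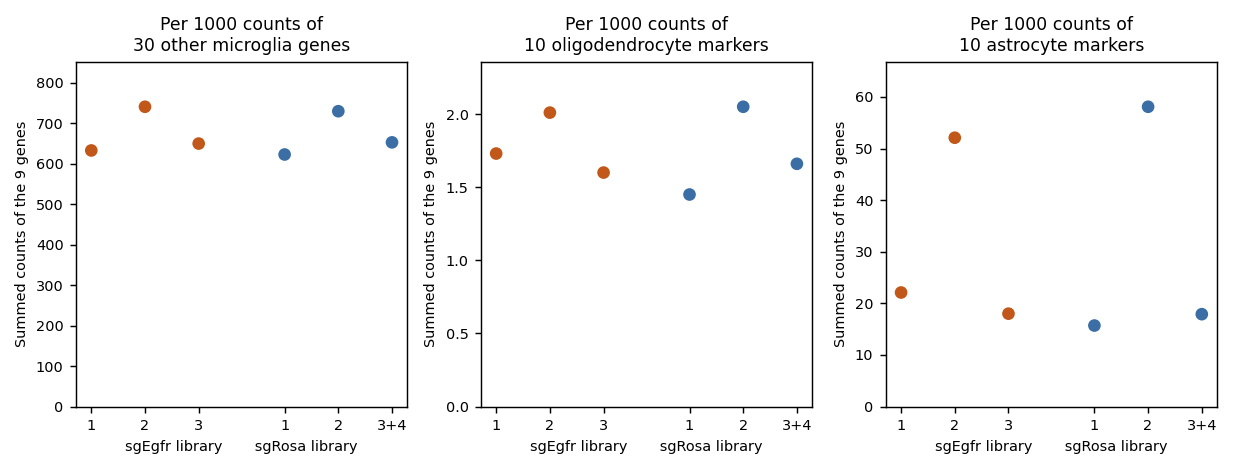
Summed counts of the 9 genes per 1000 counts of 30 other microglia genes, 10 oligodendrocyte markers and 10 astrocyte markers (y axes, from 0) in sgEgfr 1 to 3 (orange) and sgRosa 1, 2 and 3+4 (blue). The highest value is 1.19 times the lowest for the microglia list, 1.42 times for the oligodendrocyte list and 3.71 times for the astrocyte list.

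Other macrophages and blood cells were also looked for. The 10 border macrophage genes took 0.00104% to 0.00284% of counts in sgEgfr and 0.00141% to 0.00328% in sgRosa, with Mrc1, a mannose receptor, at a mean of 3.97 CPM and F13a1, a coagulation factor subunit, at 5.54 CPM. Their sum was lowest in sgEgfr 2, where the microglia genes were highest, at 10.4 CPM. Of the 10 blood leukocyte genes, all 10 were at 0 in at least 1 library. The neutrophil genes S100a8, S100a9 and Ngp had 72, 36 and 157 counts in sgEgfr 1 and at most 2 counts in every other library. Haemoglobin and other red cell genes summed to 809, 56.0 and 11.2 CPM across sgEgfr 1 to 3, against 3.80, 260 and 623 CPM in sgRosa 1, 2 and 3+4, an order of samples unlike that of the microglia genes.

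Between the guides, no microglia gene passed the test. All 9 passed the filter on low counts, and 0 of 9 were called by edgeR at an adjusted p under 0.05, where 0% of the 14936 genes tested were called (0 higher and 0 lower). With no adjustment, 401 genes (2.68%) had a p under 0.05, and 0 of the 9 were among them. DESeq2, limma-voom and limma-voom with quality weights also called 0 genes, with 500, 418 and 793 genes at an unadjusted p under 0.05. All 9 log2 fold changes were positive, as were 52.9% of all genes tested, with a median of 0.44 beside 0.02 for all genes. The 9 genes share their samples and varied together, so that these are not 9 separate observations. Positive values also prevailed in some lists of other cells, with 0 genes called. They were found for 9 of 9 neuron markers (median 0.56, 3 genes at an unadjusted p under 0.05), 9 of 10 endothelial markers (median 0.75, 4 genes) and 8 of 10 oligodendrocyte precursor markers (median 0.58, 1 gene). The dissociation response genes had 12 of 14 (median 0.91, 6 genes). Signs were mixed in other lists, with 6 of 10 astrocyte markers positive (median 0.22), 5 of 10 oligodendrocyte markers (-0.02) and 3 of 7 mural cell markers (-0.01). Negative values prevailed for the border macrophage genes (1 of 7 positive, median -0.25) and the red cell genes (1 of 5, -0.06). A positive median was thus not particular to the microglia genes. The CPM of the 2 groups overlapped for 9 of 9, and 7.61% of all genes had groups that did not overlap.

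Trem2 had a log2 fold change, sgEgfr over sgRosa, of 0.91 (SE 0.67, 95% confidence interval -0.65 to 2.47) and Aif1 of 0.85 (SE 0.42, -0.14 to 1.84). C1qa had 0.67 (SE 0.43, -0.34 to 1.68), C1qb 0.44 (SE 0.45, -0.62 to 1.5) and C1qc 0.26 (SE 0.34, -0.53 to 1.06). Among the receptors, P2ry12 had 0.38 (SE 0.37, -0.47 to 1.23), Csf1r 0.30 (SE 0.43, -0.70 to 1.29) and Cx3cr1 0.22 (SE 0.41, -0.73 to 1.17), and Tmem119 had 0.54 (SE 0.48, -0.58 to 1.66). The edgeR adjusted p was 0.997 for each, and the intervals leave room for differences of more than 2-fold in the positive direction for all 9 genes. The direction rested on sgEgfr 2. Without that library 4 of 9 genes were positive, and C1qb, C1qc, Csf1r, Cx3cr1 and P2ry12 had log2 fold changes of -0.15, -0.14, -0.28, -0.22 and -0.11. The median of the 9 was then -0.11, and the difference in mean share of counts was -0.000641 percentage points, where it was 0.00384 with all samples. Without sgRosa 1, Cx3cr1 had -0.04.

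**Figure D5:**
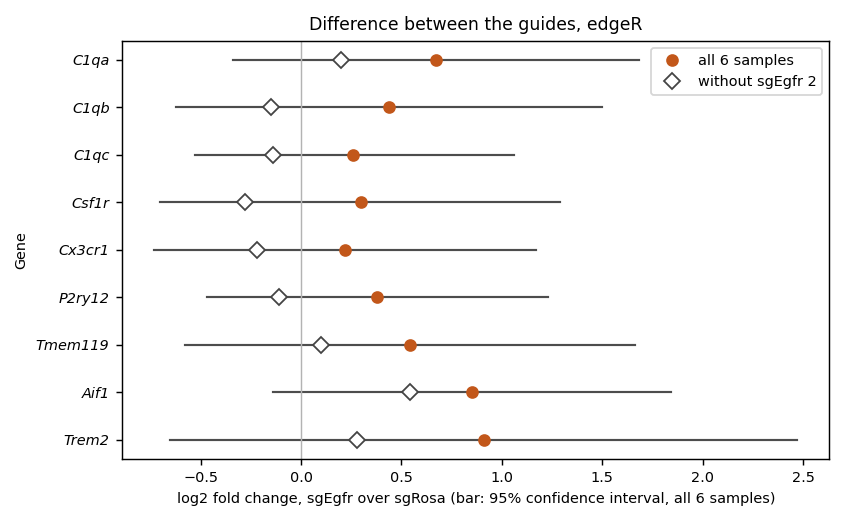
Log2 fold change of each of the 9 genes, sgEgfr over sgRosa (x axis), from edgeR with all 6 samples (filled circles, with the 95% confidence interval as a bar) and without sgEgfr 2 (open diamonds). Every interval covers 0, and 5 of the 9 diamonds lie below 0.

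sgEgfr 2 also stood high, as did sgEgfr 3, for genes that respond to tissue dissociation, among them Fos and Jun, immediate early transcription factors. These 14 genes summed to 2670, 5250 and 4980 CPM across sgEgfr 1 to 3, against 1410, 3290 and 1630 CPM in sgRosa 1, 2 and 3+4. The 10 heat shock genes summed to 1790, 2270 and 1800 CPM across sgEgfr 1 to 3, against 1270, 1900 and 1680 CPM in sgRosa 1, 2 and 3+4. Both sums were highest in sgEgfr 2 and lowest in sgRosa 1, as 7 of the 9 genes were. Gene by gene, 7 of the 14 dissociation genes and 4 of the 10 heat shock genes were highest in sgEgfr 2. Dusp1, a dissociation gene, was at 671 CPM in sgEgfr 2 and 743 CPM in sgEgfr 3. In sgEgfr 3 the 9 microglia genes took 0.0129% of counts, against 0.0287% in sgEgfr 2. Mitochondrial genes took 8.48%, 10.3% and 13.3% of counts in sgEgfr 1 to 3, against 14.6%, 6.10% and 11.2% in sgRosa 1, 2 and 3+4. The part of these in the microglia values was not tested.

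Of the 30 other microglia genes, 24 had positive and 6 negative log2 fold changes (median 0.42), and 0 were called. Ctss had 0.81 (SE 0.45), Rgs10, a regulator of G protein signalling, 0.69 (SE 0.37), and Laptm5 0.51 (SE 0.37). Ptprc had -0.97 (SE 0.39) and was the only one of the 30 at an unadjusted p under 0.05 by edgeR (unadjusted p = 0.0397, adjusted p = 0.997 with Benjamini-Hochberg). Without sgEgfr 2 the median of this list was 0.01.

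The transcription factors of microglia showed no shared direction. Of 10, 6 were positive and 4 negative (median 0.13), and 0 were called. Sall1, which in the adult brain marks microglia but is also found in other neural cells, was at a mean of 25.4 CPM with a log2 fold change of -0.07. Mef2a, a factor of many cell types, was at 72.5 CPM with -0.09. Cebpa had 0.25 and Ikzf1, a lymphoid and myeloid factor, -0.89. Ikzf1 averaged only 1.12 CPM, with 3, 17 and 24 counts in sgEgfr 1 to 3, against 24, 37, 7 and 5 in sgRosa 1 to 4. The median of the 10 was -0.15 without sgEgfr 2 and -0.02 without sgRosa 1.

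Ligands for the receptors were measured in the same libraries. Csf1, the ligand of CSF1R, was at a mean of 104 CPM with a log2 fold change of -0.51 (SE 0.27). Cx3cl1, the gene of fractalkine, was at 17.6, 12 and 27.5 CPM across sgEgfr 1 to 3, against 10.6, 8.25 and 11 CPM in sgRosa 1, 2 and 3+4. Its groups did not overlap, with a log2 fold change of 0.94 (SE 0.33, unadjusted p = 0.024), but it was not called (edgeR adjusted p = 0.997). Tgfb1, a cytokine that keeps microglia in their homeostatic state, was at 0.729 CPM with -1.69 (SE 0.74). The lipoproteins Apoe and Clu, which TREM2 can bind, were at 5260 and 1510 CPM with log2 fold changes of 0.46 (SE 0.43) and 0.52 (SE 0.45). Of the 6 genes of this list, which takes in Tgfb1, 4 were positive (median 0.47), and 0 were called. The median was 0.20 without sgRosa 2.

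Below the receptors, Tyrobp, the adaptor of TREM2, was at 10.8, 11.9 and 3.23 CPM across sgEgfr 1 to 3, against 3.31, 7.57 and 4.57 CPM in sgRosa 1, 2 and 3+4, the same order of samples as for Trem2. Of the 9 signalling genes tested 6 were positive (median 0.37), among them Tyrobp at 0.74 (SE 0.54), the phospholipase gene Plcg2 at 0.61 (SE 0.40) and the kinase gene Btk at 1.31 (SE 0.62). Btk averaged only 0.652 CPM, with 18, 15 and 16 counts in sgEgfr 1 to 3, against 3, 12, 3 and 1 in sgRosa 1 to 4. The adaptor Grb2 and the G protein subunit Gnai2, which many cells express, had -0.11 and -0.31. None of these 9 genes was called, and the median was -0.11 without sgEgfr 2 and 0.71 without sgEgfr 3.

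The complement genes next to C1q in the pathway were partly too low to test. C1s1, the gene of the protease C1s, averaged 1.40 CPM and had a log2 fold change of -1.28 (SE 0.67). Serping1, the inhibitor of these proteases, was at 7.89 CPM with 0.57 (SE 0.32), and C4b, the substrate of C1s, at 33.9 CPM with 0.25 (SE 0.28). Of 13 genes 10 were tested, 8 of them positive (median 0.37), and 0 were called. Without sgEgfr 1 the median was -0.02.

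Genes of the disease-associated microglial state lay over a wide range of levels. Apoe, Ctsb and Ctsd, the last 2 being cathepsin genes, were at 5260, 772 and 374 CPM. The counts are of bulk RNA and do not show which cells these transcripts came from. Cst7, Clec7a and Itgax, which define the state in mouse models, averaged 0.0798, 0.608 and 0.268 CPM and did not pass the filter. These means were uneven over the libraries. Clec7a had 43 counts in sgEgfr 1, 15 in sgRosa 2, 2 in sgRosa 1 and 0 elsewhere. Itgax had 13 in sgEgfr 1, 15 in sgRosa 2 and 0 elsewhere. Of 14 tested genes 10 were positive (median 0.18), with Spp1, osteopontin, at 1.01 (SE 0.60) and Gpnmb at 1.58 (SE 0.76), and 0 were called. Gpnmb averaged only 1.25 CPM, with 36, 15 and 54 counts in sgEgfr 1 to 3, against 12, 2, 14 and 1 in sgRosa 1 to 4. The median of the 14 was 0.54 without sgRosa 2 and 0.07 without sgRosa 1. Of 7 border macrophage genes tested 1 was positive and 6 were negative, with a median of -0.25 and 0 called, and the median ran from -0.77 without sgEgfr 1 to 0.16 without sgRosa 2.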

How the data were processed

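The labels describe total RNA from bead-enriched amygdala cells, made into libraries from 5 ng. The values the authors deposited are raw counts of reads for each gene, and each of the 7 files per library repeats its column of the series table. Per the submitters' processing notes fastp 0.23.2 and STAR 2.7.5c were used with mm10, besides featureCounts 2.0.1, edgeR 3.42.4, MultiQC 1.11 and FastQC 0.11.9. Not given in the sources used here are the annotation, the strand setting and what was done with multi-mapped reads.

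The 9 genes and all lists were chosen with earlier results of these data known. Counts of sgRosa 3 and 4 were summed, genes were kept with filterByExpr (minimum count 10, minimum total 15), normalised by TMM, then fitted by glmQLFit and glmQLFTest (edgeR 4.0.16, R 4.3.3), guide as the only term, with Benjamini-Hochberg adjustment over 14936 genes. The script was tested on simulated data. In a library, 3 counts stood for 0.133 to 0.513 CPM. Co-variation, shares and list counts are descriptions with no test. Named genes were the 9, and of each list the 3 most abundant and the 2 with the smallest p, and the genes that followed the 9 most closely. Not all are printed, some results being not reported here, and Cst7, Clec7a and Itgax were added after their values were seen. Alternatives were other scaling, filters, DESeq2 1.42.0, limma-voom (limma 3.58.1), 7 separate libraries, a replicate block and each library left out. Plots were made in matplotlib 3.10.9.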

Additional observations from a re-analysis of the deposited data

How the results depend on the processing

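In 18 alternatives to the edgeR comparison (scaling, filters, DESeq2, limma-voom, 7 separate libraries, replicate block, libraries left out), 0 genes and 0 of the 9 were called. The lowest adjusted p of any of the 9 was 0.739, for Aif1. Of 162 alternative values of single genes, 156 were positive and 6 negative. Without sgEgfr 2 these were C1qb (-0.15), C1qc (-0.14), Csf1r (-0.28), Cx3cr1 (-0.22) and P2ry12 (-0.11), and without sgRosa 1 Cx3cr1 (-0.04). The highest values with a library left out were 0.77, 0.52, 0.60, 0.62 and 0.63 for C1qb, C1qc, Csf1r, Cx3cr1 and P2ry12. With each library left out, the number of positive genes ran from 4 to 9, the median of the 9 from -0.11 to 0.70, and the difference in their share of counts from -0.000641 to 0.00727 percentage points. With the other settings 9 of 9 were positive and the median was 0.30 to 0.45. The median of all genes tested stayed between -0.018 and 0.039. The median ratio SD of the 36 pairs was 0.32 to 0.45 with each sample left out. The C1qa share of C1q in sgEgfr minus that in sgRosa was 2.7 points with 7 separate libraries, and 2.53 with 6 samples.

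With the replicate number as a block the median of the 9 was 0.36, with 0 calls. The SE was then 0.20 for Cx3cr1, 0.25 for Tmem119 and 0.29 for C1qa, against 0.41, 0.48 and 0.43 without the block. For Aif1 it was 0.42 in both. The deviations of same-numbered samples correlated at -0.11, 0.52 and 0.55 across genes for the numbers 1, 2 and 3. Crosswise, sgEgfr 2 with sgRosa 3+4 gave -0.52 and sgEgfr 3 with sgRosa 2 gave -0.58. sgEgfr 1 correlated best with sgRosa 2 (0.26). Same-numbered samples were thus the closest for 2 and 3 but not for 1, and the main fit did not pair the samples.

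There were 3 samples per group, and the common biological coefficient of variation was 0.386. Aif1 and Trem2 had 19 to 190 counts per library, the lowest counts of the 9 genes.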
